A study of Mus musculus with 9 samples.

Results

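The miR-106a-363 cluster is a row of 6 miRNA hairpins on the X chromosome, and the 4 mature miRNAs described here are its guide strands with names of their own: mmu-miR-106a-5p, mmu-miR-18b-5p, mmu-miR-20b-5p and mmu-miR-363-3p (the mouse prefix is left out from here on). They were taken by name from the deposited read counts, and all 4 had reads in every library, among 1607 known mouse miRNA names with reads in the series. All 4 also passed the filter on low counts and belong to the 955 miRNAs tested. The cluster's other 2 hairpins yield miR-19b-3p and miR-92a-3p, whose mature sequences are also made from a locus on chromosome 14, so their reads cannot be assigned to the X chromosome.

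Small RNA was sequenced from whole mouse kidneys at embryonic day 16.5, in 3 libraries each from wild-type kidneys (control), from kidneys of the genotype DROSHA-E1147K transgene, and from kidneys with a DROSHA knockout. The nuclear enzyme DROSHA cuts miRNA hairpins out of their primary transcripts, and the residue changed in E1147K belongs to a catalytic RNase III domain. The labels give neither the promoter of the transgene nor the cells in which Drosha was deleted, and no strain or sex, so the values describe whole kidneys that may still hold cells with normal DROSHA. Drosha mRNA is not measured by this assay, so it could not check the genotype labels.

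miR-106a-363 is a paralog of miR-17-92, the cluster on chromosome 14 known for promoting proliferation and survival, and of miR-106b-25, which lies in an intron of Mcm7. Members with the miR-17 seed are known to repress the cell cycle inhibitor Cdkn1a, and the miR-92 seed family, which includes miR-363, represses the pro-apoptotic Bcl2l11. In the embryonic kidney miR-17-92 is needed by nephron progenitors, while mice that lack miR-106a-363 alone are viable. Each hairpin of the shared primary transcript has to be released by DROSHA and cut by DICER before 1 strand enters an Argonaute protein.

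The 4 members are shown with their miR-17-92 counterparts because the pairs are compared below. Whether any pair shares reads was not tested. The sequences are RefSeq's (build GRCm38.p6, the assembly of mm10), written 5′ to 3′ with the seed, bases 2 to 8, in capitals.
miR-106a-5p: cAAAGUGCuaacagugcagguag
miR-17-5p: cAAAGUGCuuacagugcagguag
miR-20b-5p: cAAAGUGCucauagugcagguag
miR-20a-5p: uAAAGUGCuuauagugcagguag
miR-18b-5p: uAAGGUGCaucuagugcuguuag
miR-18a-5p: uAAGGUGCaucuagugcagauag
miR-363-3p: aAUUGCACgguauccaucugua
miR-92a-3p: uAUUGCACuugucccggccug
miR-106a-5p and miR-20b-5p share the seed AAAGUGC, while miR-18b-5p and miR-363-3p have seeds of their own (AAGGUGC and AUUGCAC). Every member has the seed of its counterpart. Counted from the 5′ end and with the counterpart's base first, miR-106a-5p differs from miR-17-5p only by U10A. miR-18b-5p differs from miR-18a-5p by A18U and A20U, and miR-20b-5p from miR-20a-5p by U1C and U10C. miR-363-3p and miR-92a-3p differ at 11 positions when aligned from the 5′ end without gaps.

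The cluster spans 875 bases at chrX:52741693-52742567 (GRCm38.p6), on the minus strand, in the order Mir106a, Mir18b, Mir20b, Mir19b-2, Mir92-2 and Mir363. GENCODE vM21 gave the same coordinates for all 6 hairpins. Neighbouring hairpins are separated by 46 to 138 bases, and the long non-coding RNA gene Kis2 (52742563-52744593) overlaps the upstream end of Mir106a. The hairpins of the 4 members, the substrates of DROSHA, follow with the counted guide strand in capitals.
Mir106a: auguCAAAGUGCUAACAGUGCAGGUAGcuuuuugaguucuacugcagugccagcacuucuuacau
Mir18b: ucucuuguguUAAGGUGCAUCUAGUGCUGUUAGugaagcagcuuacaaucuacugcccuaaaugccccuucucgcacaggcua
Mir20b: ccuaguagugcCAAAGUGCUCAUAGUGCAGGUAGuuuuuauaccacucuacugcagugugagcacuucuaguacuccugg
Mir363: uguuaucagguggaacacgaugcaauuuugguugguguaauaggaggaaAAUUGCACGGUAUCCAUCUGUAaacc
The guide lies on the 5′ arm in Mir106a, Mir18b and Mir20b and on the 3′ arm in Mir363. The 4 hairpins are 65 to 83 bases long, with a GC content of 41.3% to 47.0%.

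Known miRNAs had 24350500 to 34896599 reads in a library, and a member had between 273 and 6217 reads in a library. Levels are given as CPM, miRNA read counts scaled to library size with TMM factors. Markers of kidney tubule, kidney patterning, epithelium and endothelium had reads in every library. Knockout 3 stood apart: it was the lowest library for summed tubule markers (1967 CPM, other libraries 2373 to 6651) and the highest for summed striated muscle markers (8826 CPM, other libraries 157 to 1758). Results are therefore also given without it. The labels do not say whether the 3 libraries of a group are 3 animals, so every p-value refers to the spread among libraries, part of which may be technical.

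The reads of the 4 members were a small part of the miRNA reads, and the output of the cluster as a whole is not known from them, because its miR-19b-3p and miR-92a-3p reads cannot be separated from those of chromosome 14. The 4 members together made up 0.0337%, 0.0345% and 0.0338% of miRNA reads in controls 1 to 3. The same share was 0.0303%, 0.0297% and 0.0327% in transgene libraries 1 to 3, and 0.0286%, 0.0279% and 0.0126% in knockout libraries 1 to 3. All 6 DROSHA-altered libraries lay below the 3 controls by this unscaled share, with knockout 3 far below the rest. Mature miRNA reads were themselves 80.93% to 81.90% of all counted reads in controls. They were 76.85% to 79.07% with the transgene and 74.66% to 77.02% in the knockout, so both altered groups lay below controls. The share and CPM are relative to miRNA reads, so a change of all miRNAs together was not tested.

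The order of the members was the same in every library: miR-20b-5p first, then miR-363-3p, miR-18b-5p and miR-106a-5p. miR-20b-5p took 51.0% to 58.7% of the 4 members' reads over the 9 libraries, and miR-363-3p 23.3% to 34.8%. miR-18b-5p took 9.22% to 11.999% and miR-106a-5p 4.47% to 8.17%. In controls and with the transgene, the ranges of neighbours in this order did not overlap in CPM. In the knockout they overlapped between miR-20b-5p and miR-363-3p and between miR-18b-5p and miR-106a-5p. Each share of the 4 members' reads overlapped between the groups. In controls miR-20b-5p was at 56.3% ± 3.09, against 52.9% ± 2.35 with the transgene and 55.4% ± 2.93 in the knockout (SD, n = 3 each). Counts of mature miRNAs of 22 or 23 bases need no length correction, but the ligation steps of library making can favour some sequences, so the order describes reads.

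**Figure D1:**
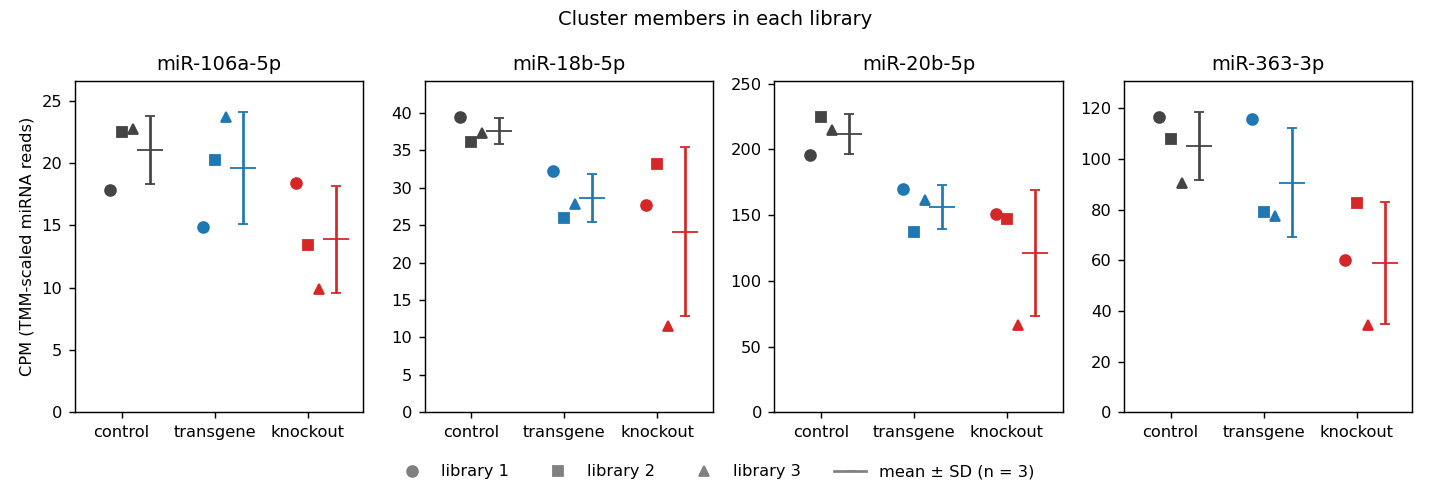
Level of each member in CPM (vertical axes start at 0 and differ between panels) in the 9 libraries, with points for libraries and bars for the mean and SD of each group. For miR-20b-5p and miR-18b-5p all 6 transgene and knockout points lie below all 3 control points, and knockout 3 (triangle) is the lowest library in every panel.

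miR-20b-5p, the most abundant member and a miR-17 family miRNA, stood at 195, 225 and 214 CPM in controls 1 to 3. It was at 169, 137 and 161 CPM in transgene libraries 1 to 3. It was at 151, 147 and 66.2 CPM in knockout libraries 1 to 3. Both altered groups lay wholly below the controls, and they overlapped each other. Group means were 212 ± 15.0 CPM in controls, 156 ± 16.9 with the transgene and 121 ± 47.9 in the knockout (SD, n = 3 each). The log2 fold change against controls was -0.80 in the knockout (SE 0.32, 95% interval -1.53 to -0.07), with an unadjusted p of 0.0352 and an adjusted p of 0.178 in edgeR's quasi-likelihood test over all miRNAs. With the transgene it was -0.44 (SE 0.32, 95% interval -1.17 to 0.29, edgeR adjusted p = 0.640). Neither passed the threshold of 0.05.

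miR-363-3p, the last miRNA of the cluster and its miR-92 family member, stood at 117, 108 and 90.7 CPM in controls 1 to 3. It was at 116, 79.0 and 77.5 CPM in transgene libraries 1 to 3. It was at 60.0, 82.7 and 34.6 CPM in knockout libraries 1 to 3. The knockout libraries lay below all controls, while transgene 1 was level with the controls. The means were 105 ± 13.3, 90.7 ± 21.6 and 59.1 ± 24.1 CPM in control, transgene and knockout (SD, n = 3 each). The log2 fold change was -0.83 in the knockout (SE 0.34, 95% interval -1.61 to -0.05, edgeR unadjusted p 0.0392 and adjusted p = 0.182). With the transgene it was -0.21 (SE 0.34, 95% interval -0.99 to 0.56, edgeR adjusted p = 0.874). Of the 4 members it had the most negative fold change in the knockout, without passing.

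miR-18b-5p, the cluster's copy of miR-18, stood at 39.5, 36.1 and 37.3 CPM in controls 1 to 3. It was at 32.2, 26.0 and 27.9 CPM in transgene libraries 1 to 3. It was at 27.7, 33.2 and 11.5 CPM in knockout libraries 1 to 3. The controls differed little, with an SD of 1.74 CPM around 37.6, and no altered library reached them. The log2 fold change was -0.39 with the transgene (SE 0.36, edgeR adjusted p = 0.727) and -0.64 in the knockout (SE 0.36, edgeR adjusted p = 0.316). The wide spread of the knockout libraries, 24.1 ± 11.3 CPM (SD, n = 3), came with knockout 3.

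miR-106a-5p, the first hairpin's guide, stood at 17.9, 22.5 and 22.7 CPM in controls 1 to 3. It was at 14.9, 20.2 and 23.7 CPM in transgene libraries 1 to 3. It was at 18.4, 13.4 and 9.88 CPM in knockout libraries 1 to 3. It was the only member that overlapped with the controls in both comparisons. Its log2 fold change was -0.10 with the transgene (SE 0.30, edgeR adjusted p = 0.947), and this value turned positive with scaling to total miRNA counts (0.14) or to all counted reads (0.08). In the knockout it was -0.60 (SE 0.31, edgeR adjusted p = 0.267).

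Read together, all 4 members had negative log2 fold changes against controls in both groups (3 of 4 with the transgene when scaled to total miRNA counts or all counted reads), with medians of -0.30 for the transgene and -0.72 for the knockout, where the medians of all 955 miRNAs were -0.04 and -0.03. A negative fold change was found for 53.3% of all miRNAs with the transgene and 51.1% in the knockout. In the knockout 3 of 4 members lay wholly below the controls. That held for 15.6% of all miRNAs tested. With the transgene 2 of 4 did, beside 12% of all miRNAs. No member passed the adjusted threshold in either comparison with controls, and no miRNA at all did in edgeR (0%), where 84 had an unadjusted p under 0.05 with the transgene and 245 in the knockout, and DESeq2 called 4 and 104. At an unadjusted p under 0.05 in edgeR, 2 of 4 members were lower in the knockout, beside 10.1% of all miRNAs, and 0 of 4 with the transgene, beside 3.56%. DESeq2 called 0 of the 4 members in either comparison.

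The lower levels in the knockout depended in size on knockout 3. Without it the log2 fold change against controls was -0.41 for miR-20b-5p, -0.46 for miR-363-3p, -0.21 for miR-18b-5p and -0.31 for miR-106a-5p. All 4 stayed negative. Over the 9 fits that each left out 1 library, the knockout fold change of miR-20b-5p ranged from -0.99 to -0.41 and that of miR-363-3p from -1.18 to -0.46. In whole kidneys, fewer cells that express the cluster and less of its RNA per cell cannot be told apart.

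Between the altered groups the members were lower in the knockout than with the transgene, but not beyond the spread. The log2 differences of knockout against transgene ranged from -0.25 (miR-18b-5p) to -0.62 (miR-363-3p, SE 0.34, edgeR adjusted p = 0.653). All 4 differences were negative, as were 46.9% over all miRNAs. All 4 members overlapped, where 5.97% of all miRNAs lay wholly lower in the knockout, and 0 of 4 passed, where 0.105% of all miRNAs did. At an unadjusted p under 0.05 in edgeR, 0 of 4 were lower, beside 3.56% of all miRNAs. Without knockout 3 the difference was -0.04 for miR-20b-5p and 0.11 for miR-18b-5p, while it was -0.32 for miR-363-3p and -0.28 for miR-106a-5p.

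Some of the marker lists separated the groups and others did not. Tubule markers (miR-192-5p, miR-194-5p and miR-204-5p) summed to 4192 to 6651 CPM in controls, 2671 to 3516 with the transgene and 1967 to 2803 in the knockout. The patterning marker miR-10a-5p, which lies in a Hox cluster, stood at 85945 to 108043, 46858 to 83590 and 25505 to 57713 CPM. Both altered groups thus lay wholly below controls for the summed tubule markers and for miR-10a-5p. Taken singly, miR-194-5p and miR-204-5p also did, while miR-192-5p overlapped controls with the transgene (transgene 2 at 2202 CPM). Summed, leukocyte miR-142a-3p and miR-223-3p lay wholly above controls in both altered groups, at 301 to 321, 328 to 979 and 337 to 992 CPM. Taken singly, miR-142a-3p lay wholly above controls only with the transgene, and miR-223-3p overlapped them in both groups. Of the pancreas and liver pair, miR-375-3p was wholly above controls in both groups (329 to 616, 2502 to 9143 and 737 to 4856 CPM). In contrast, miR-122-5p overlapped. Erythroid miR-451a and miR-144-3p, summed, were wholly above controls in the knockout and overlapped them with the transgene (21144 to 52238, 26859 to 79691 and 70479 to 111633 CPM). Of this pair only miR-451a was wholly above controls in the knockout. For miR-144-3p, knockout 2 (537 CPM) lay below control 1 (653 CPM). The epithelial pair, summed, lay wholly below controls with the transgene and overlapped them in the knockout (6586 to 7423, 5205 to 6441 and 4170 to 7427 CPM), with knockout 1 the highest library. Its members differed in sign: miR-200b-3p had log2 fold changes of -0.48 with the transgene and -0.69 in the knockout, and miR-200c-3p of 0.07 and 0.20. Neither passed the edgeR test in either comparison. Striated muscle markers overlapped in both groups (157 to 1047, 360 to 1305 and 271 to 8826 CPM), as did the endothelial, neural and early embryo lists. All markers of the 10 lists had reads in every library. The part of these differences in the level of the members was not tested.

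The passenger strands, which are mostly discarded when the guide is loaded, were rare. Over all libraries miR-20b-3p had 55 reads beside 41170 of miR-20b-5p, and miR-106a-3p and miR-18b-3p had 121 and 150. miR-363-5p had 1637 reads, or 6.11% to 8.82% of the reads of its hairpin's 2 arms per library. That share was 6.77% to 7.42% in controls, 6.11% to 7.44% with the transgene and 6.79% to 8.82% in the knockout, so the groups overlapped. Of the 6 other-arm products of the cluster's hairpins, miR-20b-3p and miR-19b-2-5p did not pass the filter on low counts. The remaining 4 had negative fold changes in both comparisons with controls, and 0 of them passed in edgeR. Scaled to total miRNA counts, 3 of 4 were negative with the transgene and 2 of 4 in the knockout. Without knockout 3, a setting chosen for these miRNAs after seeing the data, 2 of 4 were negative in the knockout, with a median of -0.04 against -0.47 with it, and miR-106a-3p and miR-18b-3p were at 0.26 and 0.31. Among these, miR-363-5p went from 8.0 ± 1.39 CPM in controls to 4.88 ± 1.79 in the knockout (SD, n = 3 each; log2 -0.71, SE 0.35, edgeR adjusted p = 0.244). miR-92a-2-5p, whose sequence comes from the X-linked miR-92a hairpin alone, was at 2.07 ± 0.477 and 0.884 ± 0.553 CPM (log2 -1.23, SE 0.51, edgeR adjusted p = 0.182), with 8 to 83 reads per library. Without knockout 3 these log2 fold changes were -0.34 (SE 0.29) for miR-363-5p and -0.71 (SE 0.36) for miR-92a-2-5p.

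The miRNAs that the cluster shares with chromosome 14 were far more abundant. miR-92a-3p stood at 27041 ± 5723 CPM in controls and 13742 ± 2748 in the knockout (SD, n = 3 each; log2 -0.98, SE 0.21, edgeR adjusted p = 0.108). miR-19b-3p stood at 3149 ± 274 and 2463 ± 221 CPM (log2 -0.35, SE 0.17, edgeR adjusted p = 0.229). In both, the knockout libraries lay below all controls, and neither passed. Without knockout 3 the log2 fold changes were -0.72 and -0.23.

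**Figure D2:**
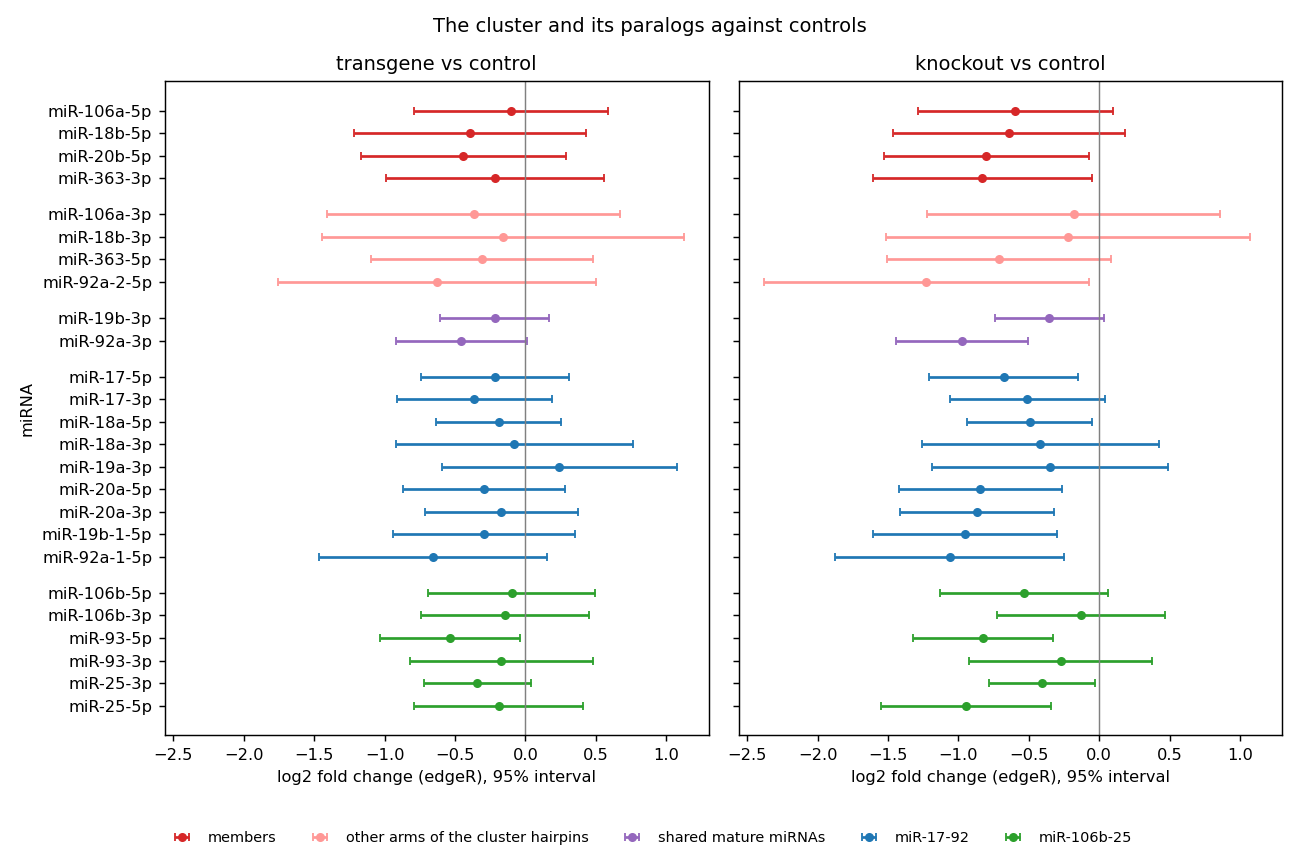
log2 fold change against controls (points) with 95% intervals from edgeR (lines) for the cluster's members, the other arms of its hairpins, the mature miRNAs it shares with chromosome 14, and the tested miRNAs of miR-17-92 and miR-106b-25. With the TMM scaling drawn, all points in the knockout panel are negative, and in the transgene panel only miR-19a-3p is positive. With total miRNA counts, 3 of 4 members, 3 of 4 other arms and 1 of 2 shared miRNAs are negative for the transgene. The same holds for 4 of 9 miRNAs of miR-17-92 and 2 of 6 of miR-106b-25. For the knockout, 2 of 4 other arms and 5 of 6 miRNAs of miR-106b-25 are then negative, and every miRNA of the other lists.

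In the knockout the paralogous clusters had fold changes of the same sign as the members, while with the transgene their sign depended on the scaling. Of the 10 miRNAs listed for miR-17-92, 9 were tested; in the knockout all 9 were negative, with a median of -0.68, and with the transgene 8 were, with a median of -0.22 and miR-19a-3p at 0.24. All 6 miRNAs of miR-106b-25 were negative in the knockout (median -0.47) and with the transgene (median -0.18). Scaled to total miRNA counts, the transgene medians were 0.02 for miR-17-92 (4 of 9 negative) and 0.06 for miR-106b-25 (2 of 6 negative), and those in the knockout were -0.45 and -0.25 (9 of 9 and 5 of 6 negative). Without knockout 3, when all 10 of miR-17-92 passed the filter, the knockout medians were -0.54 (10 of 10 negative) and -0.38 (5 of 6 negative). No miRNA of either list passed in any comparison in the edgeR fit of all 9 libraries with TMM scaling. The other X-linked miRNAs gave different values: the 72 tested miRNAs with loci only on chromosome X, the cluster aside, had a median of 0.18 in the knockout with 32 negative, and 0.06 with the transgene with 34 negative.

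The ratio of a member to its counterpart within a library does not depend on how libraries are scaled. miR-20b-5p had 6.83%, 7.81% and 8.91% as many reads as miR-20a-5p in controls 1 to 3. The share was 7.40%, 6.54% and 7.19% in transgene libraries 1 to 3 and 7.99%, 8.74% and 6.87% in knockout libraries 1 to 3. The groups overlapped, and knockout and control means of the log2 ratio (pseudocount 1) were -3.67 ± 0.17 and -3.68 ± 0.19 (SD, n = 3 each; exact two-sided permutation p = 0.9).

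miR-18b-5p had 2.87%, 3.07% and 3.47% as many reads as miR-18a-5p in controls 1 to 3. The share was 3.01%, 2.52% and 2.58% in transgene libraries 1 to 3 and 2.86%, 3.73% and 1.61% in knockout libraries 1 to 3. Knockouts 2 and 3 were the highest and the lowest of all libraries. The log2 ratio differed from controls by -0.22 with the transgene (exact permutation p = 0.2) and by -0.28 in the knockout (exact permutation p = 0.7, and a difference of 0.06 without knockout 3).

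miR-363-3p had 0.460%, 0.323% and 0.406% as many reads as miR-92a-3p in controls 1 to 3. The share was 0.596%, 0.408% and 0.379% in transgene libraries 1 to 3 and 0.377%, 0.564% and 0.325% in knockout libraries 1 to 3. The groups overlapped, with log2 differences of 0.20 and 0.07 from controls (exact permutation p = 0.5 and 0.9). miR-92a-3p comes from both chromosomes, so this ratio does not separate the 2 clusters.

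Of the 12 ratio comparisons, 4 members in 3 pairs of groups, none had groups without overlap, and the exact permutation p ranged from 0.2 to 0.9. After Benjamini-Hochberg adjustment every p was 0.9, and 3 libraries against 3 cannot give an exact p below 0.1. The largest mean difference was 1.21-fold, for miR-18b-5p in the knockout. These values do not show that the clusters changed alike, because the SD of the log2 ratio within the knockout group reached 0.62.

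**Figure D3:**
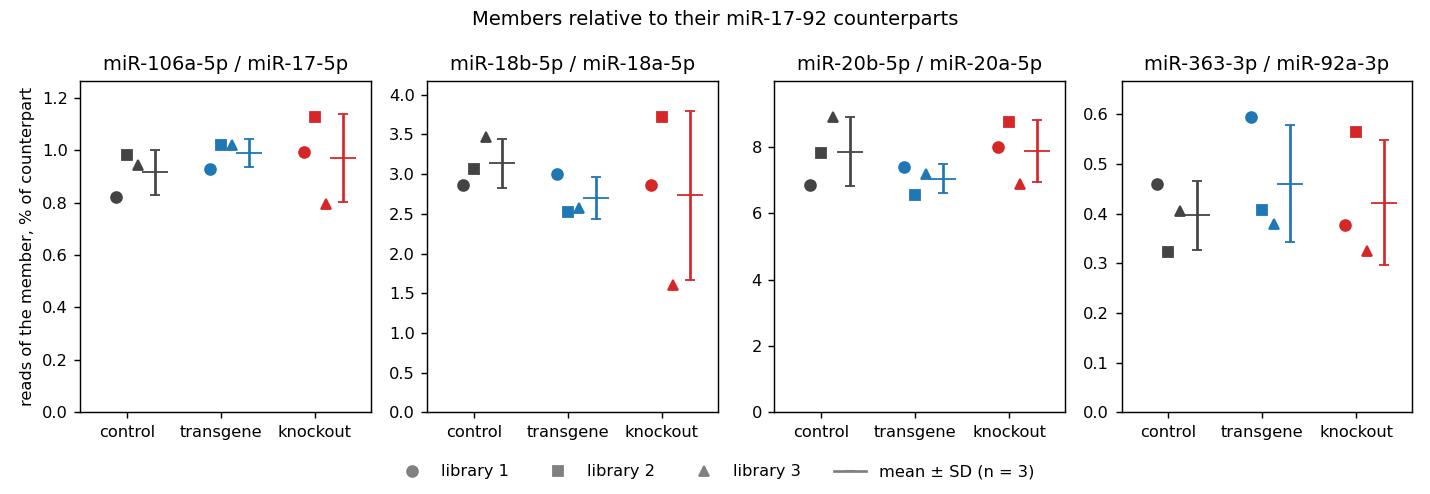
Reads of each member as a percentage of the reads of its miR-17-92 counterpart in the same library (vertical axes start at 0 and differ between panels), with the mean and SD of each group. The groups overlap in every panel, and knockout 3 is lowest for miR-18b-5p at 1.61%.

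miR-106a-5p followed its counterpart more closely than its own cluster. It had 0.820%, 0.983% and 0.945% as many reads as miR-17-5p in controls 1 to 3. The share was 0.926%, 1.02% and 1.02% in transgene libraries 1 to 3 and 0.992%, 1.13% and 0.794% in knockout libraries 1 to 3. Over the 9 libraries the log2 ratio of miR-106a-5p to miR-17-5p had an SD of 0.159, while its log2 ratio to the cluster's other members had SDs of 0.322 (miR-20b-5p), 0.406 (miR-18b-5p) and 0.469 (miR-363-3p). Transgene 1, for example, was the lowest of its group for miR-106a-5p and for miR-17-5p (1604 CPM) and the highest of its group for the other 3 members.

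For each of the other members, at least 1 cluster neighbour was closer than the counterpart. The log2 ratio of miR-18b-5p had SDs of 0.145 to miR-20b-5p, 0.217 to miR-363-3p and 0.348 to miR-18a-5p. Without knockout 3 these were 0.151, 0.228 and 0.194, so the distance to miR-18a-5p rested largely on that library. miR-20b-5p lay about as close to miR-20a-5p (SD 0.158) as to miR-18b-5p, and less close to miR-363-3p (SD 0.248). The SD of miR-363-3p to miR-92a-3p was 0.312. Without knockout 3 these 3 SDs were 0.160, 0.265 and 0.301. Closeness was not limited to the cluster. Over the 9 libraries miR-20a-5p had SDs of 0.222 to miR-363-3p and 0.226 to miR-18b-5p, though it is the counterpart of neither. miR-363-3p thus lay closer to miR-20a-5p than to its neighbour miR-20b-5p. Without knockout 3 the SDs of miR-20a-5p to miR-363-3p and miR-18b-5p were 0.232 and 0.224. Across the 9 libraries, which share scaling and depth between miRNAs, log2 CPM of miR-106a-5p had a Pearson correlation of 0.93 with miR-17-5p and 0.56 with miR-363-3p. Without knockout 3 these were 0.93 and -0.14, and that with miR-20b-5p went from 0.79 to 0.42. miR-106a-5p and miR-17-5p differ by the single base U10A shown above, and no source used here says how reads that match both names with an error were assigned. The count of miR-106a-5p is therefore uncertain, and the part of miR-17-5p reads in it was not tested.

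**Figure D4:**
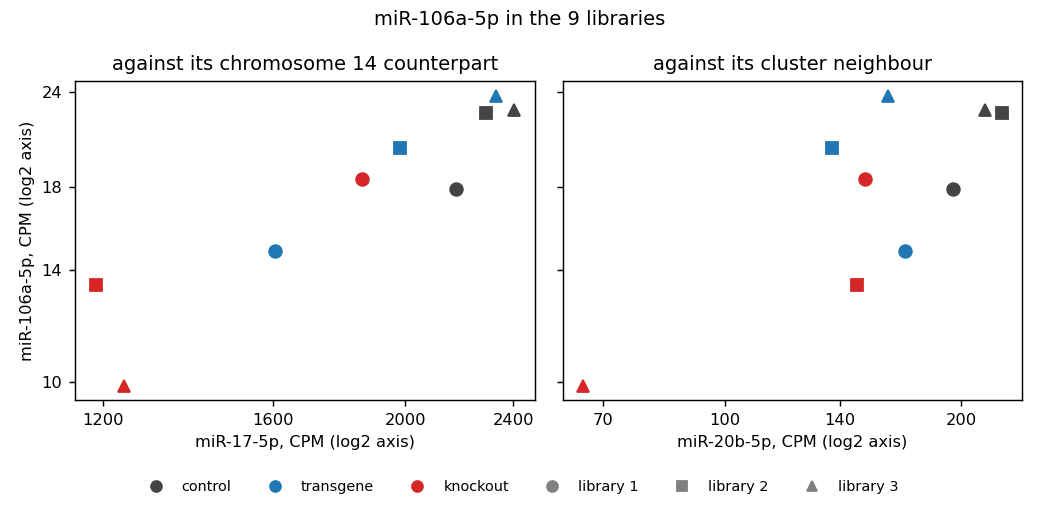
miR-106a-5p (vertical, CPM on a log2 axis) against miR-17-5p (left) and miR-20b-5p (right, both CPM on log2 axes), with 1 point per library. The points lie near a line on the left (Pearson r 0.93), while on the right transgene and knockout libraries of similar miR-20b-5p level spread widely in miR-106a-5p.

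The named members made up a small share of their seed families in all groups; for the miR-92 seed this is the share of miR-363-3p and not of the cluster, which also makes part of miR-92a-3p. miR-106a-5p and miR-20b-5p made up 1.45% ± 0.137 of the reads of the 6 miRNAs with the seed AAAGUGC in controls, 1.46% ± 0.125 with the transgene and 1.42% ± 0.285 in the knockout (SD, n = 3 each). miR-18b-5p made up 3.04% ± 0.288, 2.63% ± 0.252 and 2.65% ± 1.01 of the reads with the miR-18 seed. miR-363-3p made up 0.351% ± 0.0553, 0.405% ± 0.0996 and 0.357% ± 0.110 of those with the miR-92 seed. In each family the group means differed by less than the largest of the 3 group SDs. For miR-18b-5p that SD was the knockout's. Its control and transgene means differed by more than the SD of either group, but their libraries overlapped (transgene 1 at 2.92%, control 1 at 2.79%). For scale, miR-93-5p of miR-106b-25 alone stood at 10514 ± 2114 CPM in controls (SD, n = 3).

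Outside these families, the miRNAs with a pattern most like the mean log2 CPM of the 4 members were sought among 445 miRNAs with a mean of at least 10 CPM. They were miR-429-3p, miR-187-3p and miR-200a-5p (Pearson r 0.96 each over 9 libraries), and miR-615-5p and miR-200b-3p (0.93 each). miR-429, miR-200a and miR-200b are neighbours on chromosome 4 and mark epithelium. miR-200c-3p, the epithelial miRNA of another locus, differed from them in sign, with a log2 fold change of 0.20 in the knockout. Without knockout 3 their correlations were 0.82, 0.88, 0.81, 0.57 and 0.73 in the same order. The 5 with the most opposite pattern were miR-493-3p (-0.98), miR-381-3p (-0.97), and miR-381-5p, miR-487b-3p and miR-300-3p (-0.96 each), and without knockout 3 they ranged from -0.97 to -0.78. All 5 are known products of the imprinted Dlk1-Dio3 region of chromosome 12. These correlations are over libraries that share scaling and marker differences and are given as a description.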

How the data were processed

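Per the labels' protocols, RNA was extracted with Trizol from frozen kidneys and sequenced as BGI small RNA libraries. CASAVA 1.8, Bowtie2 and the mm10 build appear in the submitters' processing notes, without their roles. The deposited counts are whole reads per small RNA name and add up to the total in each header, and the deposited TPM, which per the file headers and values is the count scaled to that total, was not tested. Mature and hairpin counts of each known miRNA were added (205 to 490 hairpin reads per library). The total was 31743004 to 42609889 reads per library.

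Counts were fitted in edgeR 4.0.16 (R 4.3.3) over all 9 libraries with 3 groups, TMM scaling (factors 0.882 to 1.13), filterByExpr, the quasi-likelihood F test and Benjamini-Hochberg adjustment over 955 miRNAs at 0.05. SE is the log2 fold change over the root of F. For ratios to counterparts (pseudocount 1), two-sided exact permutation tests over libraries were used. The edgeR script was tested on simulated data for knockout against control. It recovered 16.8% of 2-fold and 68.6% of 4-fold changes at the adjusted threshold, with 4.8 false calls per simulated set. A miRNA that did not pass may therefore still have changed. Replicates differed by more than read sampling. Sequences and loci came from RefSeq (GRCm38.p6), matched for all 4 members. Members, lists and the rule for named miRNAs (cluster products, paralogs, markers, and the 5 most and least alike by Pearson r) were chosen with earlier results of these data known. Alternatives were scaling, filters, DESeq2 1.42.0, the groups fitted, a replicate block, mature rows only, a pseudocount of 0.5 and leaving out each library.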

Additional observations from a re-analysis of the deposited data

How the results depend on the processing

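No member passed the adjusted threshold in any comparison under any of the 19 alternatives fitted for it (adjusted p from 0.118 to 1.0). Against controls the sign of the knockout fold change was negative for all 4 members in every alternative (76 of 76 values), and that of the transgene in 73 of 76. The exceptions were miR-106a-5p with total miRNA counts (0.14), all counted reads (0.082) and without transgene 1 (0.012, range -0.25 to 0.012 over the libraries left out). For knockout against transgene, miR-18b-5p was 0.11 without knockout 3 (range -0.54 to 0.11), and the other 75 values were negative. Scaling by total miRNA counts put the all-miRNA median at 0.18 (transgene) and 0.19 (knockout), and all counted reads put the first at 0.12. The 3 miRNAs made without DROSHA put it at -0.16 for the knockout and -0.10 for knockout against transgene. At an unadjusted p under 0.05, higher miRNAs were 59.5% with the transgene (93.9%, 87.1% and 80% under these scalings), 60.8% in the knockout (80.7%, 72.7% and 44.6%) and 49.3% between the altered groups (49.3%, 40.6% and 16.7%).

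DESeq2 called 4, 104 and 3 of all miRNAs for transgene and knockout against control and knockout against transgene, where edgeR called 0, 0 and 1 (miR-3067-5p, named after its values were seen). That 1 call became 0 with the 2 groups fitted alone and with the replicate block, and 0 to 1 on leaving out a library. For knockout against control, leaving out a library gave 0 to 48 calls. The cause was not tested. Same-numbered libraries correlated from -0.28 to 0.08 in their deviations, and the labels give no link beyond the number. With 3 libraries per group these correlations cannot exclude a pairing. The replicate block called 0 members. Libraries did not correlate best with their own number throughout.

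Leaving out a library reversed these log2 ratio differences. For knockout against control they ranged from -0.040 to 0.21 (miR-106a-5p to miR-17-5p), -0.54 to 0.063 (miR-18b-5p to miR-18a-5p), -0.092 to 0.10 (miR-20b-5p to miR-20a-5p) and -0.16 to 0.23 (miR-363-3p to miR-92a-3p). For knockout against transgene they ranged from -0.15 to 0.10, -0.33 to 0.28 and -0.37 to 0.063 for miR-106a-5p, miR-18b-5p and miR-363-3p. Counting error at 273 reads, the fewest of a member, gives 8.74 to 11.1 CPM around 9.88 (exact Poisson, counting error only).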
